A study of Mus musculus with 20 samples.

Results

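The Notch genes described here are the ligands Jag1 and Jag2, the receptors Notch1, Notch2 and Notch3, and the target genes Hes1, Hey1, Heyl, Nrarp and Sox9. They were chosen by symbol, as every probe set that the platform annotation maps to 1 of these symbols alone. This gave 21 of the 45037 probe sets and 10 of the 18193 genes tested. The cells were Hepa1-6, an established hepatoma line of the mouse strain C57L. The treated groups received TGFβ1 at 1 ng/ml and were collected at 0, 1, 3, 6 and 10 h, and the untreated groups were collected at the same times without TGFβ1. All 10 groups, untreated ones included, had been washed and held in medium depleted of growth factors for 4 h before the start. Each group had 2 samples, labelled as biological duplicates, and each was measured on its own Affymetrix array, which gave 20 arrays. The results describe 1 tumour line grown without other liver cells.

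Notch signalling passes between touching cells. A Jagged or Delta-like ligand on one cell binds a Notch receptor on its neighbour, proteases then cut the receptor, and the freed intracellular part joins the DNA-binding protein RBPJ to switch on targets of the Hes and Hey families and Nrarp. In the developing liver, Jag1 on the mesenchyme around the portal vein and Notch2 on hepatoblasts direct the formation of bile ducts, and Sox9 marks the cells that enter this fate. TGFβ signals through SMAD transcription factors and takes part in the same process.

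The reference table of RefSeq promoters (GRCm38.p6), which runs from 250 bases before a gene's start to 50 after it, held windows for 6 of the 10 genes: Jag1, Jag2, Notch1, Notch2, Notch3 and Nrarp. Each window was searched on both strands for the RBPJ core TGGGAA, the SMAD motif CAGAC, the N-box CACNAG bound by HES proteins and the E-box CACGTG. Below, the windows of Notch1 and Jag1 are shown because these are the receptor and the ligand whose RNA differed between treated and untreated cells, and that of Nrarp because it held 4 SMAD motifs although its RNA did not pass the test. They are printed in the direction of transcription, with motif matches in capitals. Notch1 lies on the minus strand at chr2:26503773-26504072, Jag1 on the minus strand at chr2:137116471-137116770 and Nrarp on the plus strand at chr2:25180508-25180807.
Notch1: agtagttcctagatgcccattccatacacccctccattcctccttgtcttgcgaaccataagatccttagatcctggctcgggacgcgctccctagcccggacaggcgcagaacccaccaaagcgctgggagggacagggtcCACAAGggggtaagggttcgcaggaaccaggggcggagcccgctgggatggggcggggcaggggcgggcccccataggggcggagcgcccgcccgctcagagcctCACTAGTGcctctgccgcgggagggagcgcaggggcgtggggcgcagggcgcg
Jag1: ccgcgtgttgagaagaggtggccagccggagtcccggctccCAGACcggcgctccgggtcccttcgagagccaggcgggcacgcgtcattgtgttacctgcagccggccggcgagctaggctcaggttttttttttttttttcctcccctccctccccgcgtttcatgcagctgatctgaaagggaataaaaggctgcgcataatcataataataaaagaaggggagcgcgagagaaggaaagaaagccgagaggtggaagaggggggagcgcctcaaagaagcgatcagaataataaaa
Nrarp: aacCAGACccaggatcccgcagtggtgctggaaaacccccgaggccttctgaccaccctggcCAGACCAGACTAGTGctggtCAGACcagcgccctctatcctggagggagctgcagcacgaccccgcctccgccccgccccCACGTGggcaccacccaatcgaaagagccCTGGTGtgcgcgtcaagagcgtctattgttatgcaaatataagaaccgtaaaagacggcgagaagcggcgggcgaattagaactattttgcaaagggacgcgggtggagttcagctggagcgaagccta

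The Notch1 window held 3 N-box matches, 2 of which overlap on opposite strands in the longer run of capitals, and no SMAD motif. The Jag1 window held 1 SMAD motif and no other match. In the Nrarp window, 4 SMAD motifs stood beside 2 N-boxes, the first of which overlaps a SMAD motif, and 1 E-box. Notch3 held 2 SMAD motifs and 2 N-boxes, Notch2 held 1 N-box, and Jag2 held none of the 4 motifs. The RBPJ core was in 0 of the 6 windows. Among all 32851 windows of the table, 25.6% held the RBPJ core, 49.6% the SMAD motif, 42.5% the N-box and 7.15% the E-box, and 3.90% held the SMAD motif at least 3 times. A match describes letters in a window and is not a measured binding site.

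As a check of the treatment, Smad7 and Klf10, feedback genes that TGFβ induces in many cells, rose by 2.45 ± 0.07 and 3.57 ± 0.07 on the log2 scale at 1 h (SE), and by 0.42 and 0.37 at 10 h. Levels are log2 values made with RMA, and the array medians lay between 5.15 and 5.21. Of 12 measured hepatocyte markers, 6 lay above the array median, among them Alb, Afp and Hnf4a, and of 7 cholangiocyte markers 4 did, namely Krt7, Krt19, Epcam and Cldn4. At most 2 of the 7 to 10 measured markers of stellate cells, endothelial cells, macrophages and lymphocytes did so. Duplicates correlated at 0.9958 to 0.9971 over all probe sets. In a bulk measurement, fewer cells that express a gene and less RNA per cell cannot be told apart.

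At 0 h, where the labels call treated and untreated cells equivalent, limma called 0 of the 10 Notch genes and 0 of the 18193 genes (0.0%), and 0 of the 10 had an unadjusted p under 0.05. A gene is called where its p-value, adjusted by the Benjamini-Hochberg method over all genes tested, is under 0.05. After 1 h of TGFβ1, 2 genes were called, the targets Hes1 and Sox9, both higher, against 2.24% of all genes called. At 3 h, 3 genes were called, Sox9 higher and Notch1 and Hes1 lower, against 15.3% of all genes. At 6 h, 4 genes were called, Jag1 and Sox9 higher and Notch1 and Hes1 lower, against 15.7% of all genes. At 10 h, limma called 0 of the 10, with 2 at an unadjusted p under 0.05, against 9.14% of all genes called. Jag2, Notch2, Notch3, Hey1, Heyl and Nrarp were not called at any of these 4 times. The median difference over the 10 genes was -0.00, -0.09, -0.07 and -0.01 at 1, 3, 6 and 10 h, beside -0.01, -0.02, -0.03 and -0.00 over all genes.

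**Figure D1:**
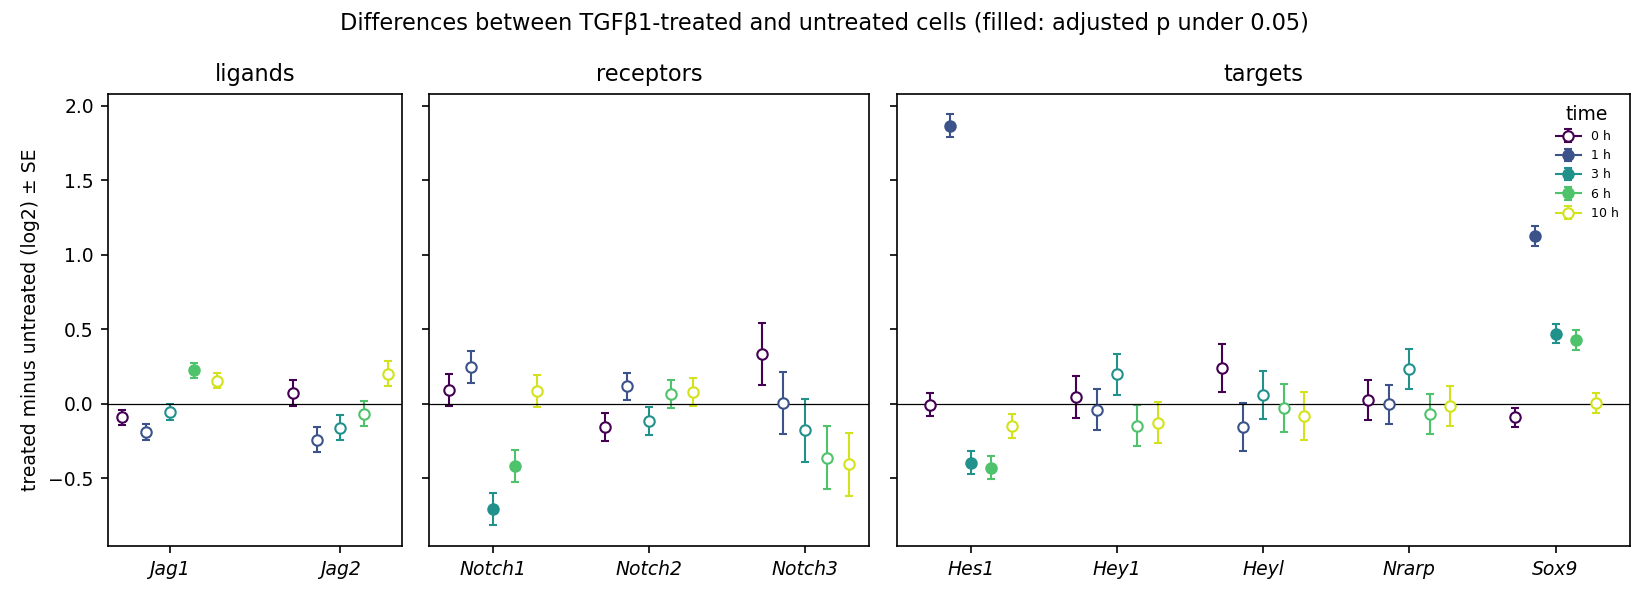
Treated minus untreated difference on the log2 scale for the 10 Notch genes at 0, 1, 3, 6 and 10 h, from the limma fit, with bars of ± SE and filled symbols where the adjusted p is under 0.05. Hes1 and Sox9 stand apart at 1 h with differences of 1.86 and 1.13, and Notch1 has its lowest difference, -0.71, at 3 h.

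Among the ligands, Jag1, which is the ligand mutated in the bile duct disorder Alagille syndrome in humans, was slightly higher in treated cells at 6 h. Its log2 levels at 6 h were 10.21 and 10.29 in treated cells, against 10.04 and 10.02 in untreated cells. Both treated arrays lay above both untreated arrays, and the difference was 0.22 ± 0.05 (SE), a fold of 1.17 (limma adjusted p = 0.00393). This call was lost when the second treated array at 6 h was left out (0.18, adjusted p = 0.0685) and when the 3 probe sets of Jag1 were averaged (0.12, adjusted p = 0.242).

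Already at 0 h, both treated Jag1 arrays (9.70 and 9.82) lay below both untreated arrays (9.88 and 9.83), which limma did not call. At 1 h, Jag1 had 9.75 and 9.72 in treated cells, against 9.93 and 9.92 in untreated cells. The treated arrays were the lower ones, with a difference of -0.19 ± 0.05 and an adjusted p of 0.0617 in limma, so this did not pass the test. A further quantile normalization of the arrays made it a call (-0.22, adjusted p = 0.0190), so that the count at 1 h was then 2 genes higher and 1 lower. Testing only the genes above the median level also made it a call (-0.19, adjusted p = 0.0388). At 3 h the groups overlapped, with 9.96 and 10.07 in treated cells, against 10.10 and 10.04 in untreated cells. At 10 h the levels were 10.44 and 10.42 in treated cells, against 10.28 and 10.27 in untreated cells, a difference of 0.15 ± 0.05 (adjusted p = 0.0707).

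Jag2, a second Jagged ligand, was not called at any time. At 1 h it had 6.94 and 6.85 in treated cells, against 7.17 and 7.11 in untreated cells, and at 10 h it had 7.16 and 7.16 in treated cells, against 6.93 and 6.98 in untreated cells. The treated arrays were the lower ones at 1 h and the higher ones at 10 h, without overlap at either time. The differences were -0.24 ± 0.08 at 1 h and 0.20 ± 0.08 at 10 h, with limma adjusted p-values of 0.228 and 0.174. In between, the differences were -0.16 at 3 h and -0.07 at 6 h.

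**Figure D2:**
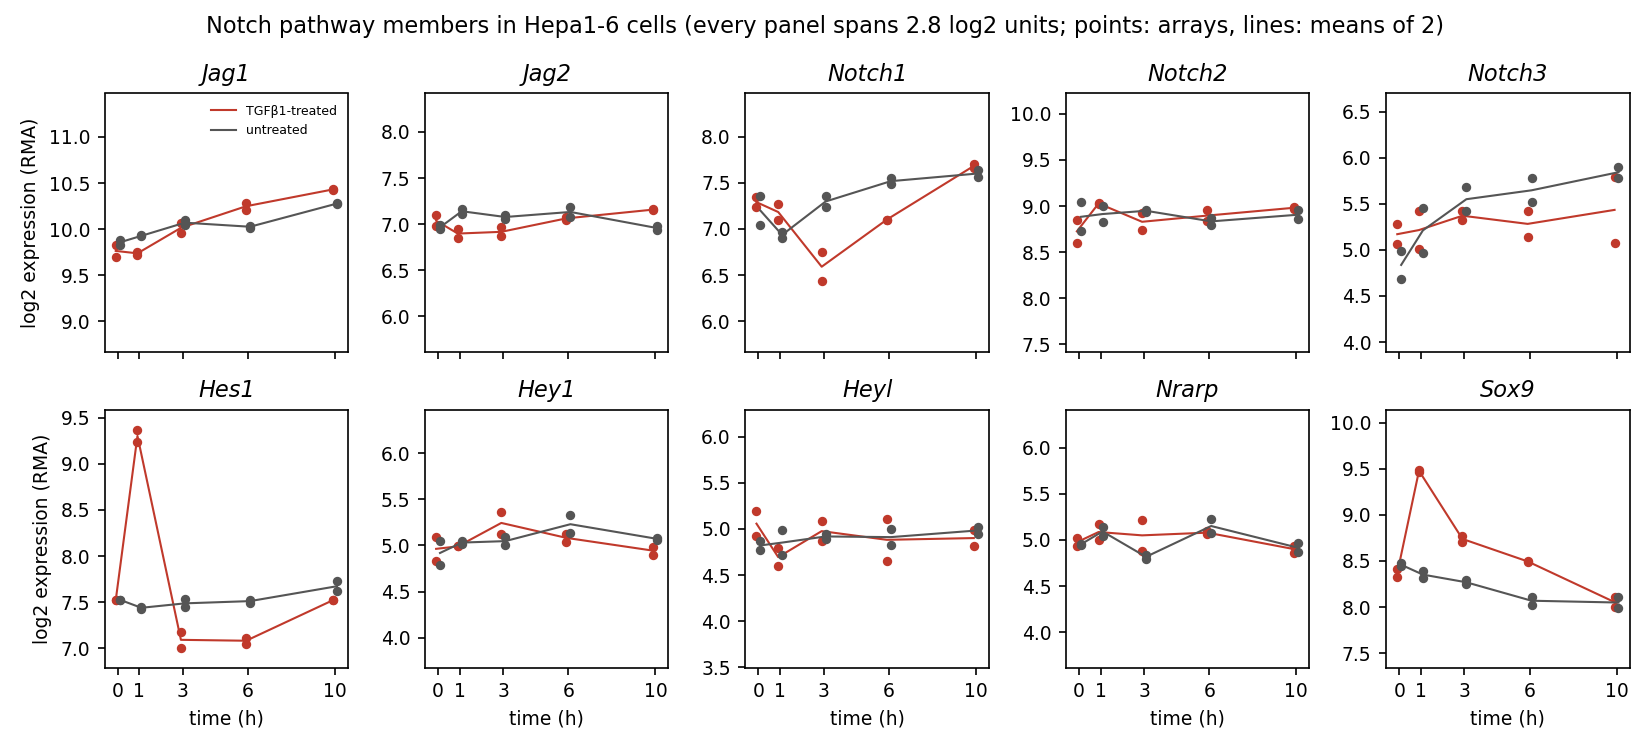
Log2 level of the 10 Notch genes on each of the 20 arrays against hours, with a panel for each gene and each panel spanning the same number of log2 units. Treated arrays are in red and untreated arrays in grey, points are single arrays and lines join the group means of 2 arrays. The Hes1 and Sox9 panels show the treated arrays far above the untreated ones at 1 h, and the Notch1 panel shows them below at 3 and 6 h.

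Among the receptors, Notch1 fell in treated cells at 3 and 6 h. At 3 h its log2 levels were 6.43 and 6.75 in treated cells, against 7.24 and 7.35 in untreated cells. Both treated arrays lay below both untreated arrays, and the difference was -0.71 ± 0.11, a fold of 1.63 lower (limma adjusted p = 5.40e-05). At 6 h the levels were 7.10 and 7.10 in treated cells, against 7.55 and 7.49 in untreated cells, a difference of -0.42 ± 0.11 (adjusted p = 0.00954). The call at 6 h was lost without the first or the second treated array at 6 h (adjusted p = 0.0542 and 0.0534) and without the first untreated array at 6 h (adjusted p = 0.0719). Set against untreated cells at 0 h, treated cells at 6 h differed by -0.10, which did not pass the test (adjusted p = 0.636).

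Before and after this dip, Notch1 was not called. At 1 h it had 7.10 and 7.27 in treated cells, against 6.91 and 6.97 in untreated cells, which put the treated arrays higher by 0.25 ± 0.11 (limma adjusted p = 0.429). At 10 h it had 7.66 and 7.71 in treated cells, against 7.57 and 7.64 in untreated cells, a difference of 0.08 ± 0.11 with a 95% interval of -0.14 to 0.31. Averaged over 1, 3, 6 and 10 h, Notch1 was lower by a mean effect of -0.20 ± 0.05 (adjusted p = 0.00934). This mean effect called 3 of the 10 genes, Sox9 and Hes1 higher and Notch1 lower, against 22.5% of all genes.

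Notch2, the receptor that acts in bile duct formation, was not called in treated against untreated cells. Its levels ran from 8.60 to 9.03 over the treated arrays and from 8.73 to 9.04 over the untreated arrays. The differences were 0.11, -0.12, 0.06 and 0.08 at 1, 3, 6 and 10 h, each with an SE of 0.09. The 95% intervals at these times reached no lower than -0.31 and no higher than 0.31.

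Notch3, a receptor that is itself induced by Notch signalling in several tissues, was measured with the widest scatter. At 10 h it had 5.79 and 5.07 in treated cells, against 5.78 and 5.90 in untreated cells. The treated duplicates lay 0.72 apart, and the first of them lay inside the untreated range. The differences were 0.00, -0.18, -0.36 and -0.41 at 1, 3, 6 and 10 h, each with an SE of 0.21, and limma called none of them (adjusted p = 0.998, 0.695, 0.308 and 0.304). Its mean effect over the 4 times was -0.24 ± 0.11 (adjusted p = 0.124). Without the first treated array at 10 h it was -0.33 (adjusted p = 0.0195).

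Among the targets, Hes1, a transcriptional repressor and a direct target of Notch in many tissues, rose first and then fell below the untreated level. At 1 h its log2 levels were 9.23 and 9.37 in treated cells, against 7.43 and 7.45 in untreated cells. Both treated arrays lay far above both untreated arrays, and the difference was 1.86 ± 0.08, a fold of 3.64 (limma adjusted p = 3.84e-13). At 3 h Hes1 had 7.00 and 7.18 in treated cells, against 7.44 and 7.53 in untreated cells, and at 6 h 7.05 and 7.11 in treated cells, against 7.53 and 7.50 in untreated cells. The treated arrays were now the lower ones, by -0.40 ± 0.08 at 3 h (adjusted p = 0.000958) and by -0.43 ± 0.08 at 6 h (adjusted p = 0.000439). At 10 h the levels were 7.52 and 7.52 in treated cells, against 7.73 and 7.62 in untreated cells, and the difference of -0.15 ± 0.08 was not called (adjusted p = 0.311). Hes1 is measured by 1 probe set, so no second probe set bears on these values.

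Sox9, a transcription factor of biliary and progenitor cells, rose at 1, 3 and 6 h. Its log2 levels at 1 h were 9.49 and 9.47 in treated cells, against 8.31 and 8.39 in untreated cells. At 3 h they were 8.77 and 8.71 in treated cells, against 8.25 and 8.29 in untreated cells. At 6 h they were 8.49 and 8.50 in treated cells, against 8.11 and 8.03 in untreated cells. The treated arrays lay above the untreated ones at these 3 times, by 1.13 ± 0.07 at 1 h (2.18-fold, limma adjusted p = 9.99e-11), 0.47 ± 0.07 at 3 h (1.39-fold, adjusted p = 1.65e-05) and 0.43 ± 0.07 at 6 h (1.34-fold, adjusted p = 6.09e-05). At 10 h the groups overlapped, with 8.11 and 8.0 in treated cells, against 7.99 and 8.11 in untreated cells, and the 95% interval of the difference was -0.13 to 0.14. The difference at 6 h came with a lower level in untreated cells: against untreated cells at 0 h, treated cells at 6 h differed by 0.04 (adjusted p = 0.792).

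Of the 7 measured cholangiocyte markers, limma called 1 higher in treated cells at 1 h, namely Cldn4. It called 3 higher at each of 3, 6 and 10 h, namely Cldn4, Krt7 and Epcam, and 0 lower. Of all genes, 1.91%, 6.73%, 7.77% and 5.07% were called higher at these times. Krt19, a keratin of bile duct cells named after its values were seen, was not called, at 0.05, -0.19, -0.25 and -0.25 (adjusted p from 0.451 to 0.971). Epcam, also named after its values were seen, was higher by 0.21, 0.21 and 0.37 at 3, 6 and 10 h (limma adjusted p = 0.0175, 0.0201 and 0.000312). The summed log2 level of the list ran from 47.4 to 50.6 over the treated arrays and from 47.0 to 48.2 over the untreated arrays. Their part in the Sox9 result was not tested.

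The other targets, Hey1 and Heyl, which are repressors of the Hey family, and Nrarp, a feedback inhibitor that Notch induces, were not called. Hey1 ran from 4.84 to 5.36 in treated cells, with a median of 5.01, against 4.78 to 5.33 in untreated cells, with a median of 5.05. Heyl ran from 4.60 to 5.19 in treated cells, with a median of 4.90, against 4.71 to 5.02 in untreated cells, with a median of 4.92. Nrarp ran from 4.86 to 5.22 in treated cells, with a median of 5.01, against 4.79 to 5.23 in untreated cells, with a median of 4.96. Pooled over all times, the ranges of treated and untreated cells overlapped for all 3 genes. Within single times, Hey1 did not overlap at any time after 0 h. Its treated arrays were the higher ones at 3 h and the lower ones at the other times. Nrarp did not overlap at 3 h, where its treated arrays were higher, but overlapped at the other times after 0 h. Heyl overlapped at each time after 0 h. The difference of Heyl furthest from 0 was -0.16 ± 0.16 at 1 h. Those of Hey1 and Nrarp were 0.20 ± 0.14 and 0.23 ± 0.13 at 3 h. The probe sets of all 3 genes lay near or below the array medians, where RMA compresses differences, and the arrays' background is unknown. A small change of these 3 genes was therefore not detectable here.

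Treated and untreated arrays did not overlap for 7, 8, 7 and 6 of the 10 genes at 1, 3, 6 and 10 h, against 34.8%, 51.2%, 51.4% and 50.4% of all genes. At 0 h, with no time under treatment, 5 of the 10 did not overlap, against 32.0% of all genes.

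**Figure D3:**
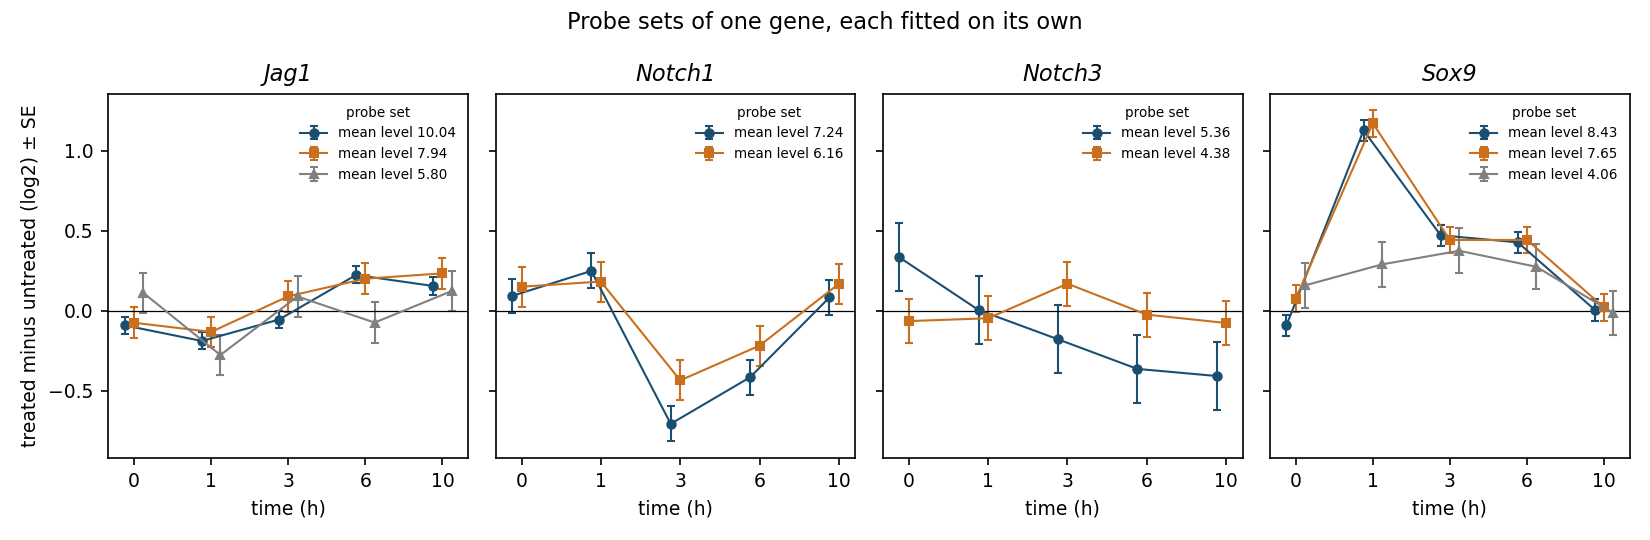
Treated minus untreated difference on the log2 scale at each time for every probe set of Jag1, Notch1, Notch3 and Sox9, each fitted on its own. Points are limma differences, bars are ± SE, and the legend gives the mean log2 level of each set, highest first. At 1 h the upper Sox9 sets differ by 1.13 and 1.17, and the third by 0.29.

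Of the 10 genes, 8 have several probe sets, and these did not always move together. When every probe set with 1 gene was tested, the second Sox9 set differed by 1.17 ± 0.08 at 1 h, 0.44 ± 0.08 at 3 h and 0.44 ± 0.08 at 6 h (limma adjusted p = 7.01e-09, 0.000875 and 0.000914), and it correlated with the main set at 0.98 over the 20 arrays. The third Sox9 set, with a mean level of 4.06, differed by 0.29, 0.37 and 0.27 at these times and was not called (adjusted p = 0.589, 0.103 and 0.272). Among all 34945 probe sets tested, 1.71% were called at 1 h and 11.3% at each of 3 and 6 h.

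The second Notch1 set also fell at 3 h, by -0.44 ± 0.12 (limma adjusted p = 0.0261), but at 6 h its difference of -0.22 ± 0.12 was not called (adjusted p = 0.345). It correlated with the main Notch1 set at 0.85. The second Jag1 set, with a correlation of 0.93 to the main one, differed by 0.20 ± 0.10 at 6 h (adjusted p = 0.232), and the third by -0.07 ± 0.13 (adjusted p = 0.822). For Jag2, Notch2, Notch3, Nrarp and Heyl, the correlation of the other sets with the main one lay between -0.55 and 0.19. These correlations describe 20 arrays that share treatment and time, and the second sets of Jag2, Notch2, Notch3 and Nrarp and both further sets of Heyl had mean levels under 5.15, the lowest array median.

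Some of the 10 genes also differed from their 0 h level within a treatment. In untreated cells against 0 h, limma called 0 of the 10 at 1 h, with 1 at an unadjusted p under 0.05, then 2 at 3 h, 4 at 6 h and 4 at 10 h, against 0.187%, 8.16%, 20.7% and 26.1% of all genes. At 6 h these were 3 higher and 1 lower, or 1 higher and 1 lower after centring each array on its median. In treated cells against treated cells at 0 h, it called 2, 4, 2 and 4 of the 10 at 1, 3, 6 and 10 h, against 3.51%, 15.8%, 24.0% and 28.0% of all genes. The comparisons within a treatment share their 0 h arrays.

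Jag1 rose over time in both. In treated cells it was higher than at 0 h by 0.25 at 3 h, 0.48 at 6 h and 0.67 ± 0.05 at 10 h (limma adjusted p = 0.00138, 3.45e-07 and 3.26e-09). In untreated cells it was higher by 0.21 at 3 h, 0.17 at 6 h and 0.42 ± 0.05 at 10 h (adjusted p = 0.0121, 0.0220 and 2.29e-06). The level at 0 h was 9.70 and 9.82 in treated cells and 9.88 and 9.83 in untreated cells, below both arrays of either treatment at 10 h. The calls in untreated cells at 3 and 6 h were lost without the second untreated array at 0 h (adjusted p = 0.122 and 0.156) or without the first untreated array of that time (adjusted p = 0.115 and 0.104), and the one at 6 h also without the second array of that time (adjusted p = 0.0701).

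Sox9 fell in untreated cells, by -0.39 ± 0.07 at 6 h and -0.41 ± 0.07 at 10 h against 8.44 and 8.48 at 0 h (limma adjusted p = 0.000167 and 5.51e-05). In treated cells it stood above its 0 h level by 1.11 at 1 h and 0.37 at 3 h and below it by -0.31 ± 0.07 at 10 h (adjusted p = 1.37e-10, 0.000271 and 0.000758). At 10 h Sox9 was below its 0 h level in both treatments. Hes1 in treated cells was higher than at 0 h by 1.78 at 1 h and lower by -0.43 at 3 h and -0.44 at 6 h (adjusted p = 9.12e-13, 0.000426 and 0.000219). At 10 h it had 7.52 and 7.52, the same rounded values as at 0 h, while Hes1 in untreated cells was not called at any time.

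Notch1 rose late in both by its main probe set. At 10 h this set was higher than at 0 h by 0.39 ± 0.11 in treated cells (limma adjusted p = 0.00803) and by 0.40 ± 0.11 in untreated cells (adjusted p = 0.00745), and in treated cells at 3 h it was lower than at 0 h by -0.70 ± 0.11 (adjusted p = 6.02e-05). With the mean of the Notch1 probe sets, the rise at 10 h was 0.23 in treated and 0.22 in untreated cells. Neither was then called (limma adjusted p = 0.0972 and 0.109). The late rise in treated cells was lost without the first treated array at 0 h (0.34, adjusted p = 0.0789) or the second at 10 h (0.37, adjusted p = 0.0577). That in untreated cells was lost without the first untreated array at 0 h (0.25, adjusted p = 0.180) or the second at 10 h (0.37, adjusted p = 0.0654). In untreated cells at 6 h the difference of 0.32 (adjusted p = 0.0402) was 0.17 (adjusted p = 0.441) without the first untreated array at 0 h, 0.29 (adjusted p = 0.167) without the first at 6 h and 0.35 (adjusted p = 0.0929) without the second at 6 h.

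Notch3 rose in untreated cells. It had 5.42 and 5.68 at 3 h, 5.78 and 5.52 at 6 h and 5.78 and 5.90 at 10 h, against 4.69 and 4.98 at 0 h. Each of these 6 arrays lay above both arrays of 0 h, with differences of 0.71, 0.81 and 1.01 ± 0.21 (limma adjusted p = 0.0408, 0.00796 and 0.000929). The call at 10 h held when any of its 4 arrays was left out. The call at 3 h was lost without any 1 of its 4 arrays (adjusted p from 0.0713 to 0.289), and that at 6 h without the first untreated array at 0 h (0.66, adjusted p = 0.0985) or at 6 h (0.68, adjusted p = 0.0833). The second Notch3 probe set differed by 0.12 ± 0.14 at 10 h (adjusted p = 0.654). In treated cells Notch3 was not called against 0 h, where the treated arrays had 5.06 and 5.28. Both lay above both untreated arrays of 0 h, but limma did not call Notch3 at 0 h, where 32.0% of all genes did not overlap. Each treatment was set against its own 0 h arrays. Against untreated cells at 0 h, treated cells at 10 h were higher by 0.60 (limma adjusted p = 0.0384).

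Notch2 was called at 10 h in treated cells, at 0.26 ± 0.09 above 0 h (limma adjusted p = 0.0460). This call was lost without the first treated array at 0 h (0.13, adjusted p = 0.460), the first at 10 h (0.24, adjusted p = 0.170) or the second at 10 h (0.27, adjusted p = 0.125). The call was also lost with the mean of the probe sets (0.15, limma adjusted p = 0.142) and without the variance trend (0.26, adjusted p = 0.110). Further quantile normalization (0.24, adjusted p = 0.0763) and centring each array on its median (0.24, adjusted p = 0.0547) lost it as well. In untreated cells Notch2 was not called at any time.

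Whether the effect of TGFβ1 itself changed with time was tested as the difference of 2 treated-minus-untreated differences. From 1 to 3 h, 3 of the 10 genes were called, Hes1, Notch1 and Sox9, against 6.41% of all genes. From 3 to 6 h, 1 was called, Jag1, against 4.55%, and from 6 to 10 h 1 was called, Sox9, against 2.44%. Between 10 h and 1 h, 4 were called, Jag1 and Jag2 higher and Hes1 and Sox9 lower, against 4.02% of all genes. After centring each array on its median this last count was 1 higher and 2 lower. The effect on Hes1 changed by -2.26 ± 0.11 from 1 to 3 h (limma adjusted p = 3.51e-11), and that on Notch1 by -0.96 ± 0.15 (adjusted p = 0.000274). The effect on Sox9 was smaller at 3 h than at 1 h by -0.66 ± 0.09 (adjusted p = 6.56e-05).

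Other genes of the pathway were counted in lists by role. Of 70 measured genes besides the 10, 2 were higher and 0 lower at 1 h, 7 and 7 at 3 h, 11 and 7 at 6 h, and 9 and 2 at 10 h. The shares of all genes called higher were 1.91%, 6.73%, 7.77% and 5.07% at these times, and the shares called lower were 0.324%, 8.55%, 7.96% and 4.06%. The median difference of the 70 genes was 0.03, 0.03, 0.06 and 0.05. Those named here are the up to 3 genes of a list with the lowest adjusted p, unless stated otherwise.

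**Figure D4:**
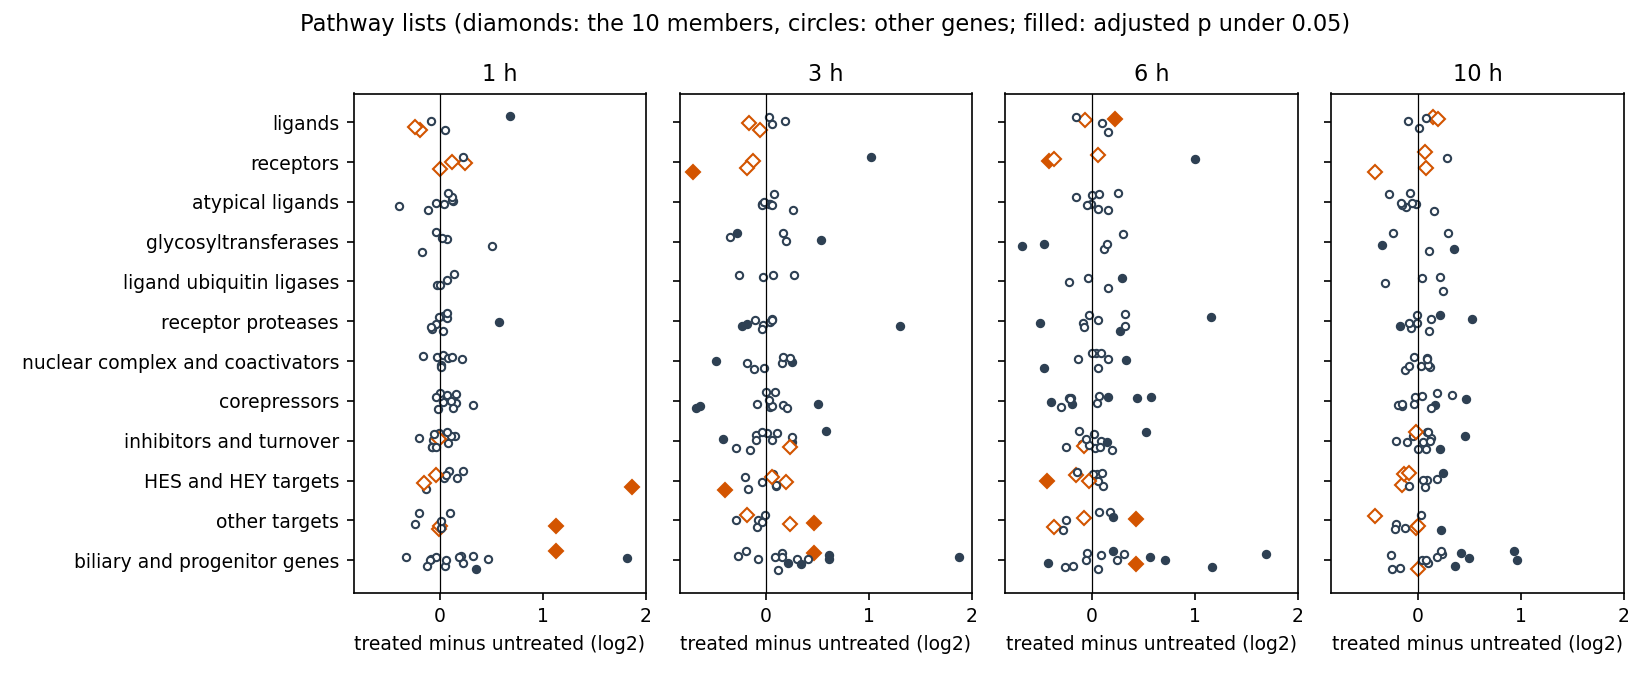
Treated minus untreated difference on the log2 scale, on the horizontal axis, of each gene in the 12 pathway lists at 1, 3, 6 and 10 h. Diamonds are the 10 Notch genes, circles are other genes, filled symbols have a limma adjusted p under 0.05, the vertical scatter within a list carries no value, and a gene of several lists appears in each. At 1 h the filled circle far right among the biliary and progenitor genes is Cldn4 at 1.81.

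Among the 3 Delta-like ligands, Dll1 rose at 1 h, with 6.44 and 6.39 in treated cells, against 5.78 and 5.69 in untreated cells. Both treated arrays were higher, by 0.68 ± 0.13 (1.60-fold, limma adjusted p = 0.00235), and at 3, 6 and 10 h Dll1 was not called. The fourth receptor, Notch4, had 5.03 and 5.02 in treated cells at 3 h, against 3.67 and 4.33 in untreated cells. It rose by 1.03 ± 0.20 at 3 h and 1.01 ± 0.20 at 6 h (adjusted p = 0.00100 and 0.00124), at a mean level of 4.13, below the array medians. The mean of its probe sets differed by 0.37 at 3 h and 0.25 at 6 h and was not called (adjusted p = 0.0850 and 0.287). Of 8 atypical ligands, limma called 0 at each of 1, 3, 6 and 10 h, with 1 at an unadjusted p under 0.05 at 1 h and 0 at the other times.

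Of the 8 measured genes of the proteases that cut the receptor, their subunits included, Furin, which makes the first cut of the maturing receptor, rose at all 4 times. In this list 1 gene was higher at 1 h, 1 was higher and 2 lower at 3 h, and 2 were higher and 1 lower at each of 6 and 10 h. At 3 h it had 7.92 and 7.80 in treated cells, against 6.54 and 6.56 in untreated cells, and the differences were 0.58, 1.31 ± 0.09, 1.16 and 0.53 at 1, 3, 6 and 10 h (limma adjusted p = 0.000531, 1.49e-09, 1.17e-08 and 0.000719). Adam10, which cuts the ligand-bound receptor, rose by 0.28 ± 0.05 at 6 h (adjusted p = 0.000677). The mean of its probe sets differed by 0.13 (adjusted p = 0.397). Psen2, a catalytic subunit of the γ-secretase that frees the intracellular part, fell by -0.50 ± 0.07 at 6 h (adjusted p = 1.29e-05), with 7.61 and 7.64 in treated cells, against 8.12 and 8.13 in untreated cells.

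Of the 5 glycosyltransferases that modify the receptor, 1 was higher and 1 lower at 3 h, 2 were lower at 6 h, and 1 was higher and 1 lower at 10 h. Rfng fell by -0.46 ± 0.07 at 6 h, with 8.49 and 8.50 in treated cells, against 9.05 and 8.87 in untreated cells (limma adjusted p = 2.86e-05), and Mfng fell by -0.67 ± 0.13 at 6 h (adjusted p = 0.0007). Set against untreated cells at 0 h, Mfng in treated cells at 6 h differed by -0.29, which did not pass the test (adjusted p = 0.115). Pofut1, which adds O-fucose to the receptor, was 0.36 ± 0.09 higher at 10 h (adjusted p = 0.0144). This call was lost without the second treated array (adjusted p = 0.174) or the first untreated array (adjusted p = 0.178) at 10 h. The higher gene at 3 h was Lfng, named after its values were seen, at 0.54 ± 0.15 (adjusted p = 0.0165). Of 4 ubiquitin ligases that act on the ligands, Mib1 was 0.30 ± 0.09 higher at 6 h (adjusted p = 0.0226), a call that was lost without any 1 of the 4 arrays compared (adjusted p from 0.0572 to 0.141).

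**Figure D5:**
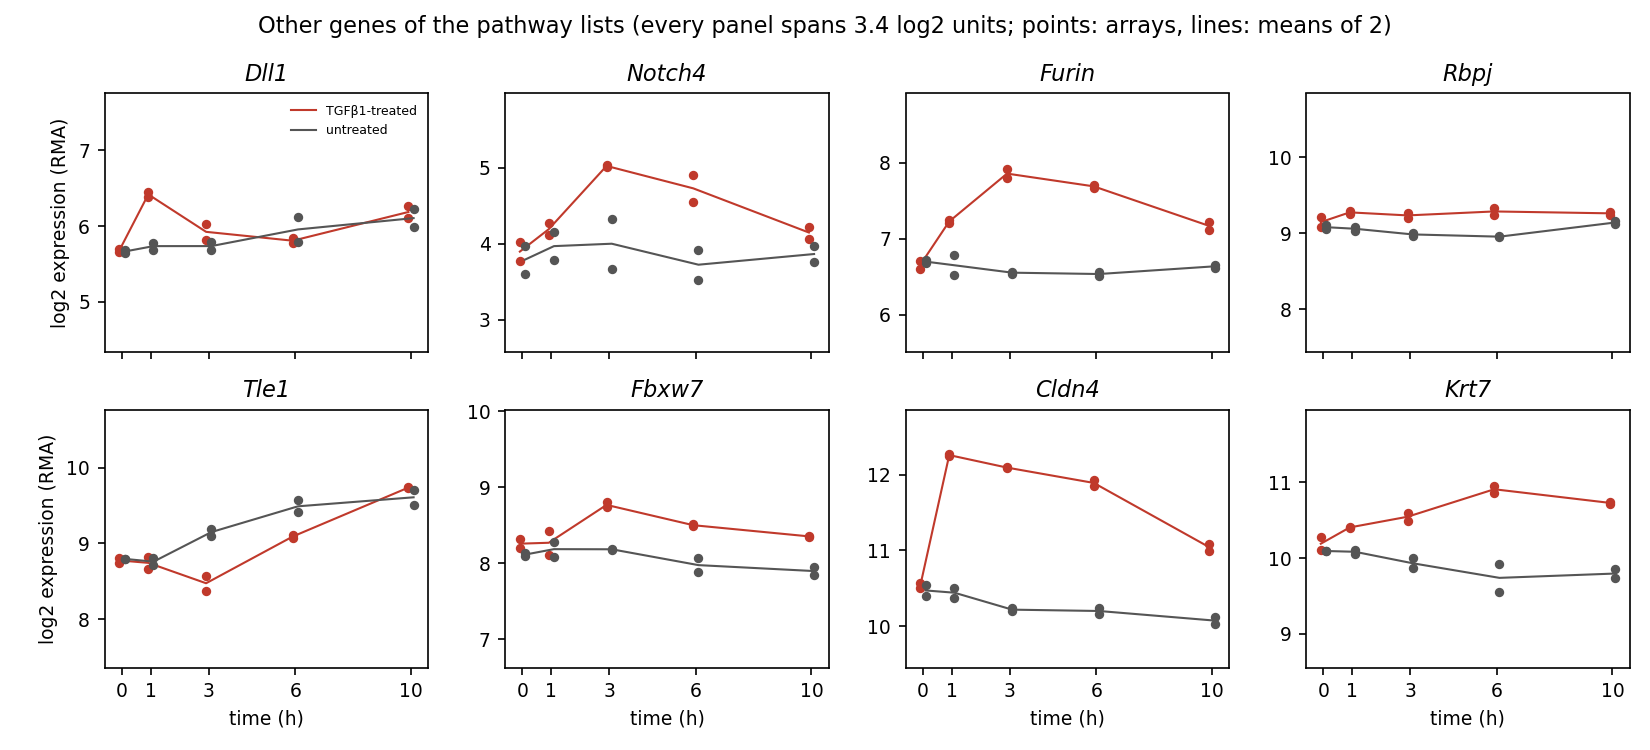
Log2 level of Notch pathway genes outside the 10 on each array against hours, drawn as in the plot of the 10 genes, with treated arrays in red and untreated arrays in grey and lines through the group means of 2 arrays. Each panel spans the same number of log2 units. Treated arrays of Furin lie above the untreated ones at 1, 3, 6 and 10 h, and those of Tle1 below them at 3 and 6 h.

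In the nucleus, Rbpj, the DNA-binding partner of the freed receptor, rose by 0.33 ± 0.06 at 6 h, with 9.24 and 9.34 in treated cells, against 8.97 and 8.95 in untreated cells (limma adjusted p = 0.000266). At 3 h it was 0.25 higher (adjusted p = 0.00382), a call that was lost without the second treated array (adjusted p = 0.0576) and, at 0.16, against untreated cells at 0 h (adjusted p = 0.0778). Kat2b, a histone acetyltransferase, fell by -0.48 ± 0.06 at 3 h, with 9.42 and 9.42 in treated cells, against 9.94 and 9.87 in untreated cells (adjusted p = 1.92e-06). Both were among 8 measured members of the nuclear complex, of which 1 was higher and 1 lower at 3 h and again at 6 h.

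Corepressors of the Groucho family moved in both directions at 3 h, where 1 of 11 measured corepressors was higher and 2 were lower. Tle1 had 8.38 and 8.57 in treated cells, against 9.20 and 9.10 in untreated cells, and fell by -0.67 ± 0.08 (limma adjusted p = 1.42e-06). Tle4 had 9.72 and 9.74 in treated cells, against 10.42 and 10.31 in untreated cells, and fell by -0.64 ± 0.06 (adjusted p = 7.95e-08). Tle3 was higher instead, with 9.41 and 9.30 in treated cells, against 8.84 and 8.86 in untreated cells, by 0.50 ± 0.08 (adjusted p = 0.000167). At 10 h Tle1 and Tle4 were not called, while Tle3 was 0.47 ± 0.08 higher (adjusted p = 0.000811).

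Among 12 genes of inhibition and turnover, 2 were higher and 1 lower at 3 h, and 2 were higher at each of 6 and 10 h. Fbxw7, the ubiquitin ligase subunit that marks the freed receptor for destruction, rose by 0.58 ± 0.09 at 3 h, 0.53 at 6 h and 0.46 at 10 h (limma adjusted p = 6.96e-05, 0.000249 and 0.00201). Set against untreated cells at 0 h, the difference at 10 h was 0.24 (adjusted p = 0.0555). At 3 h it had 8.80 and 8.74 in treated cells, against 8.19 and 8.18 in untreated cells. Dtx4, a Deltex ubiquitin ligase, fell by -0.41 ± 0.06 at 3 h, with 9.16 and 9.11 in treated cells, against 9.52 and 9.58 in untreated cells (adjusted p = 1.59e-05). Set against untreated cells at 0 h, the difference at 3 h was -0.11 (adjusted p = 0.268). At 10 h Dtx4 was 0.22 ± 0.06 higher in treated cells (adjusted p = 0.0177), a call that was lost without any 1 of the 4 arrays compared (adjusted p from 0.0751 to 0.123). Numb, which promotes uptake of the receptor, was 0.26 higher at 3 h (adjusted p = 0.0163), but not without the first treated or the second untreated array (adjusted p = 0.166 for each). Of the 6 other measured Hes and Hey genes, limma called 0 at 1, 3 and 6 h, with 1, 0 and 0 at an unadjusted p under 0.05. At 10 h Hes6 was 0.24 higher (adjusted p = 0.0362), a call that was lost without any 1 of the 4 arrays compared (adjusted p from 0.0664 to 0.278). Of 5 further targets, Ccnd1, a cyclin of the G1 phase, was 0.20 higher at 6 h and 0.23 higher at 10 h (adjusted p = 0.00906 and 0.00697). The call at 6 h was lost without the second treated or the first untreated array (adjusted p = 0.162 and 0.0538), and that at 10 h without the second treated or either untreated array (adjusted p = 0.0639, 0.0607 and 0.0505).

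Of 14 measured biliary and progenitor genes besides Sox9, 2 were higher at 1 h, 5 at 3 h, 5 at 6 h and 5 at 10 h, and 1 was lower at 6 h. The shares of all genes called higher at these times were 1.91%, 6.73%, 7.77% and 5.07%, and 7.96% were called lower at 6 h. Cldn4, a tight junction protein, had 12.27 and 12.24 in treated cells at 1 h, against 10.37 and 10.51 in untreated cells. It rose by 1.81 ± 0.06 at 1 h, 1.87 ± 0.06 at 3 h, 1.69 ± 0.06 at 6 h and 0.97 ± 0.06 at 10 h (limma adjusted p = 4.02e-15, 1.92e-15, 1.84e-14 and 3.98e-10). Krt7, a keratin of bile duct cells, had 10.86 and 10.95 in treated cells at 6 h, against 9.92 and 9.55 in untreated cells, and rose by 0.61, 1.17 ± 0.08 and 0.93 at 3, 6 and 10 h (adjusted p = 1.53e-05, 1.66e-09 and 1.50e-07). Sox4, a transcription factor related to Sox9, rose by 0.35, 0.62, 0.71 and 0.42 at the 4 times (adjusted p = 1.27e-05, 8.28e-10, 1.20e-10 and 7.73e-07). The lower gene at 6 h was Onecut1, named after its values were seen, at -0.42 ± 0.14 (adjusted p = 0.0370).

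The genes whose levels ran most like those of Sox9 over the 20 arrays were Zfp36l2, Gadd45g, Gadd45b, Csf1 and Pwwp2b, with Pearson correlations of 0.954, 0.949, 0.936, 0.935 and 0.929. Their differences at 1 h were 1.25, 2.54, 3.41, 1.13 and 0.99, and at 10 h 0.01, 0.02, 0.49, 0.02 and 0.24. For Notch3 the closest genes were Acadm and 4930511E03Rik, at 0.804 and 0.801. For Hes1, which was added to this comparison after its values were seen, they were Sik1, Mideas and Hbegf, at 0.943, 0.943 and 0.924. Next came Mafk and Foxa1, each at 0.918. Of these genes only Hbegf was like Hes1 in sign at each time, with differences of 1.09, -0.55, -0.50 and -0.16 at 1, 3, 6 and 10 h. Sik1 and Mideas had Hes1's sign at 1, 3 and 6 h, but at 10 h they differed by 0.011 and 0.003. Mafk and Foxa1 were higher by 0.89 and 0.88 at 1 h and differed by 0.010 and 0.001 at 3 h. These correlations describe arrays that share treatment, time and duplicates.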

How the data were processed

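Expression was measured with 1 Affymetrix array per sample in Hepa1-6 cells, in 10 groups of 2 arrays set by the labels. The authors deposited log2 expression values, 1 per probe set and array, made with RMA per the submitters' processing notes. RMA normalizes by quantiles, so each difference is relative to the other transcripts, and it compresses differences of dim probe sets. For its version, the chip description file and the build, nothing is given in the sources used here. Values ran from 1.44 to 14.7. The platform annotation named 1 gene for 34945 probe sets, several for 932 and none for 9160, and only the first kind was tested. Where a gene had several, the set with the highest mean log2 value stood for it.

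From these values, limma 3.58.1 in R 4.3.3 was fitted with 1 mean per group to all 20 arrays (10 residual degrees of freedom), with a variance trend in eBayes, and p-values were adjusted by Benjamini-Hochberg over the 18193 genes within each comparison. The fit was tested on simulated data. The ± values are standard errors (SE) of log2 differences. With 2 arrays per group, the median SE was 0.13 at 3 h, and the number of arrays limits the precision.

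The 10 genes, the lists, the comparisons and the alternatives were chosen with earlier results of these data known. The named genes are the 10, with every probe set, up to 3 genes per pathway list with the lowest adjusted p among those past 0.05, the 5 genes most correlated with each of the 2 members of largest mean effect, and Smad7 and Klf10 as a check of the treatment. In all, 12 pathway lists and 6 cell type lists were counted. Some listed genes were not analysed here. Promoter windows come from RefSeq (GRCm38.p6). The alternatives covered normalization, the probe set used, the variance model, array weights, a filter on dim genes, the arrays in the fit, the comparison with untreated cells at 0 h, the replicate number and leaving out arrays.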

Additional observations from a re-analysis of the deposited data

Results flagged for a closer look

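The effect of TGFβ1, the treated minus the untreated log2 level, differed between times in 9 tests among the 10 genes, by a test of the difference itself in limma with Benjamini-Hochberg adjustment over all genes. From 1 to 3 h, 3 to 6 h, 6 to 10 h and 1 to 10 h, 3, 1, 1 and 4 of the 10 were called. The shares of all genes called were 6.41%, 4.55%, 2.44% and 4.02%. For Hes1 the effect at 3 h minus that at 1 h was -2.26 ± 0.11 (adjusted p = 3.51e-11) and that at 10 h minus 1 h was -2.02 ± 0.11 (adjusted p = 1.05e-10). For Sox9 the change was -0.66 ± 0.09 from 1 to 3 h (adjusted p = 6.56e-05), -0.42 ± 0.09 from 6 to 10 h (adjusted p = 0.0127) and -1.12 ± 0.09 from 1 to 10 h (adjusted p = 6.46e-08). For Notch1 it was -0.96 ± 0.15 from 1 to 3 h (adjusted p = 0.000274). The called changes of the ligands Jag1 and Jag2 had a positive sign. For Jag1 they were 0.28 ± 0.07 from 3 to 6 h (adjusted p = 0.0304) and 0.34 ± 0.07 from 1 to 10 h (adjusted p = 0.00703). For Jag2 the change was 0.44 ± 0.12 from 1 to 10 h (adjusted p = 0.0384).

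The changes of Hes1, of Notch1, of Jag1 from 1 to 10 h and of Sox9 from 1 to 3 h and from 1 to 10 h were called with any 1 of their 8 arrays left out. Without the variance trend, that of Jag1 from 1 to 10 h did not pass the test (0.34, adjusted p = 0.0522), and neither did that from 3 to 6 h (0.28, adjusted p = 0.117). With the mean of the probe sets of a gene, the changes of Jag2 (0.36, adjusted p = 0.189), of Jag1 from 3 to 6 h (0.08, adjusted p = 0.777) and of Sox9 from 6 to 10 h (-0.38, adjusted p = 0.0693) were not called. With each array centred on its median, that of Jag2 was not called (0.44, adjusted p = 0.0533). The change of Jag2 was lost with any 1 of its 8 arrays left out (adjusted p from 0.0549 to 0.143). That of Jag1 from 3 to 6 h was lost without the first treated array at 3 h (0.23, adjusted p = 0.158), the second treated array at 6 h (0.24, adjusted p = 0.138), the first untreated array at 3 h (0.25, adjusted p = 0.135) or the first or second untreated array at 6 h (0.29 and 0.27, adjusted p = 0.0632 and 0.0919). That of Sox9 from 6 to 10 h was lost without the second treated array at 10 h (-0.37, adjusted p = 0.0949), the second untreated array at 6 h (-0.38, adjusted p = 0.0690) or the second untreated array at 10 h (-0.37, adjusted p = 0.0931).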

How the results depend on the processing

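Over the differences at 1, 3, 6 and 10 h and the mean effect, 9 of the 12 calls among the 10 genes held under all alternatives run for them, and so did 25 of 48 calls of the other named pathway genes. The 3 that did not hold were Jag1, Notch1 and Sox9 at 6 h. The number of the 10 called at 1 h was 2 and at 3 h was 3 with any 1 array left out, and the mean effect called 3 to 4. At 6 h leaving out 1 array gave 2 to 4 calls in place of 4, and treated cells at 6 h against untreated cells at 0 h gave 2. At 10 h, where 0 were called, 1 was called (Jag1) with array weights, with genes above the median level only and with only the arrays compared, and 4 against untreated cells at 0 h. Leaving out 1 array gave 0 to 0 there.

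With the mean of a gene's probe sets, the count was 0 in place of 1 for the change of effect from 3 to 6 h and for that from 6 to 10 h, 0 in place of 2 for untreated cells at 3 h against 0 h, and 2 in place of 4 for treated cells at 10 h against 0 h. Without the variance trend it was 0 for the change from 3 to 6 h, 0 for untreated cells at 3 h and 2 in place of 4 for untreated cells at 6 h, and median centring gave 2 for the last. The cause was not tested. Leaving out each array in turn was added for these comparisons after seeing the data. It gave 0 to 1 calls for the changes from 3 to 6 h and from 6 to 10 h, 3 to 3 for the change from 1 to 10 h, 0 to 1 for untreated cells at 3 h, 1 to 3 at 6 h and 3 to 4 at 10 h, and 2 to 4 for treated cells at 10 h.

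The comparison against untreated cells at 0 h includes by construction the change of untreated cells over time. Among differences called against either reference, the sign turned for Jag1 at 3 h (0.16), Notch3 at 10 h (0.60), Sox9 at 10 h (-0.41), Dtx4 at 6 h (0.29), Tle1 at 6 h (0.29), Mib1 at 6 h (-0.19) and 10 h (-0.24), Pofut1 at 6 h (-0.45) and 10 h (-0.72) and Tle3 at 10 h (-0.15). Sign turns of differences called against neither reference are not listed.

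Same-numbered treated and untreated samples deviated together with correlations of -0.06 to 0.09 at the 5 times, so the numbers were not taken to pair samples. With the replicate number as a block, the change of effect from 6 to 10 h gave 2 calls in place of 1, and treated cells at 1 h against 0 h gave 3 in place of 2. The number of the 10 genes called did not change for any other comparison.

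With 2 arrays per group and a median SE of 0.13, small differences were not detectable, and no detection calls were used.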

Other observations

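Of 12 measured hepatocyte markers, 1 was lower in treated cells at 1 h, 1 was higher and 2 lower at 3 h, and 3 were lower at each of 6 and 10 h, by limma with Benjamini-Hochberg adjustment over all genes. The median difference of the list was -0.08, -0.06, -0.16 and -0.06 at these times. The shares of all genes called lower at 1, 3, 6 and 10 h were 0.324%, 8.55%, 7.96% and 4.06%, and those called higher were 1.91%, 6.73%, 7.77% and 5.07%. Of 10 markers of stellate cells and fibroblasts, 0, 1, 2 and 1 were higher at 1, 3, 6 and 10 h, with 1 at an unadjusted p under 0.05 at 1 h, and of 10 macrophage markers 1 was higher at each of 1, 3 and 6 h. Limma called 0 of 10 endothelial and 0 of 7 lymphocyte markers at the 4 times, with 1 of each at an unadjusted p under 0.05 at 10 h and 0 at 1, 3 and 6 h.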
